A study of Homo sapiens with 14 samples.

Results

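The genes described here encode proteins of the spindle pole, the centrosome and the centriole in CHP-134, an established neuroblastoma cell line with amplified MYCN. A fixed list of 37 gene names defined the set, covering centriole duplication, the pericentriolar material, spindle pole kinases, spindle microtubule proteins and cytokinesis. All 37 were found, each under 1 identifier, among the 17810 genes listed for the OmoMYC experiment and the 19143 listed for the dTAG47 experiment. Every one of the 37 also passed the filter on low counts, which left 13803 and 14470 genes for testing. The rule uses names only and no measured value.

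The centrosome is the main microtubule-organizing centre of animal cells. It holds a pair of centrioles, which are copied once per cell cycle, inside a pericentriolar material that anchors γ-tubulin ring complexes, from which microtubules grow. As cells enter mitosis the material expands under the control of the kinases PLK1 and Aurora A, the centrosomes move apart to form the spindle poles, and augmin adds microtubules by branching from existing ones. Many of these genes are transcribed mainly in the G2 and M phases, and spindle kinases such as Aurora A have been studied as drug targets in neuroblastoma with amplified MYCN.

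RNA was sequenced from 14 libraries after ribosomal RNA depletion. In the first experiment, CHP-134 cells carrying a doxycycline-inducible lentiviral construct for EGFP, a fluorescent control protein, or for OmoMYC, a dominant-negative MYC protein that blocks N-MYC, received 1 μg/ml doxycycline for 3 days (3 libraries each). The 2 arms are separately engineered lines, so the construct and the line cannot be told apart. In the second experiment, parental CHP-134 cells with no construct received 500 nM dTAG47 or its solvent DMSO for 18 hours (4 libraries each). dTAG47 is a degrader of proteins that carry an engineered FKBP tag, and because parental cells hold no tagged protein this comparison is a control for the compound itself.

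Library totals ranged from 28060817 to 38358128 counts in the OmoMYC experiment and from 40861430 to 53451641 in the parental one. The labels fitted the data, since counts of MYC, which can include reads from the OmoMYC construct, went from 0.61 CPM (counts scaled to a common library total) with EGFP to 522 CPM with OmoMYC. The adrenergic neuroblastoma regulators GATA3 (303 CPM with EGFP) and HAND2 (258 CPM) were abundant in these cells, whereas TH and DBH were near absent at 0.238 and 0.405 CPM with EGFP. TH and DBH rose with OmoMYC, to 0.769 and 1.16 CPM, as did ISL1 (log2 fold change 0.75) and CHGA (0.37), and of these 4 rises that of CHGA was not kept after the gene feature correction described with the GC content. Of 11 markers of other cell types, 6 were tested, of which 3 fell and 2 rose with OmoMYC. Their summed level was 80.3 to 93.9 CPM with EGFP, 73.6 to 85.7 CPM with OmoMYC and at most 34.3 CPM in parental cells. The highest with EGFP were the fibroblast markers PDGFRB (46.96 CPM, and 17.06 with DMSO), COL1A1 (21.25 and 3.74) and COL1A2 (15.75 and 8.12). With OmoMYC, COL1A1 rose (log2 fold change 0.57), whereas COL1A2 (-1.02) and PDGFRB (-0.35) fell. The immune marker PTPRC stayed at or under 1.12 CPM in the mean of every group.

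To ask how inhibition of N-MYC affected the spindle pole genes, OmoMYC was compared with EGFP. Of the 37 genes, 31 fell and 1 rose at an FDR of 0.05 (edgeR quasi-likelihood test, Benjamini-Hochberg over all tested genes), against 25.7% of all tested genes that fell and 27.3% that rose. The median log2 fold change of the 37 genes was -0.56, beside 0.01 over all tested genes, and single genes ranged from -0.999 (HMMR) to 0.29 (NUMA1). In 33 of the 37 genes all 3 OmoMYC libraries lay below all 3 EGFP libraries, and in the other 4 (PCNT, TUBG1, TUBGCP2 and NUMA1) the groups overlapped. Such separation was seen downwards in 30.3% of all tested genes and upwards in 32.0%, the latter in 0 of the 37 genes. Together the 37 genes took up 5717, 5453 and 5369 CPM in the EGFP libraries and 4059, 4051 and 3990 CPM in the OmoMYC libraries, so the groups did not overlap in their sum. Because RNA came from whole cultures, fewer cells in G2 or M phase and less RNA of these genes per cell cannot be told apart.

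**Figure D1:**
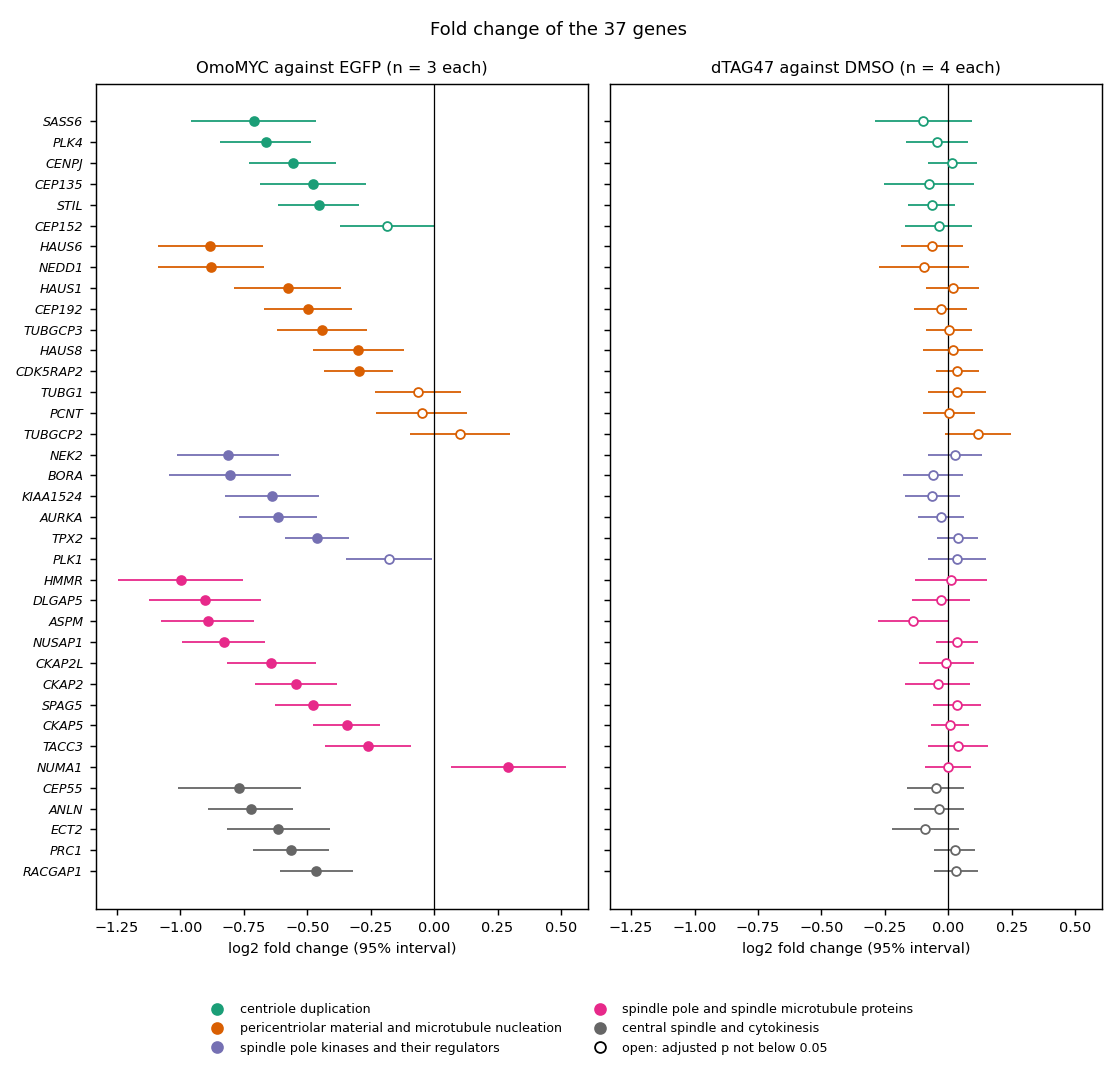
Log2 fold change of each of the 37 genes (horizontal axis, with its 95% interval) for OmoMYC against EGFP on the left and dTAG47 against DMSO on the right. Genes are grouped by role (colour), and filled points passed an FDR of 0.05. With OmoMYC 31 genes fell and NUMA1 rose (it fell after the gene feature correction), whereas with dTAG47 no gene passed and the estimates ranged from -0.14 to 0.12.

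**Figure D2:**
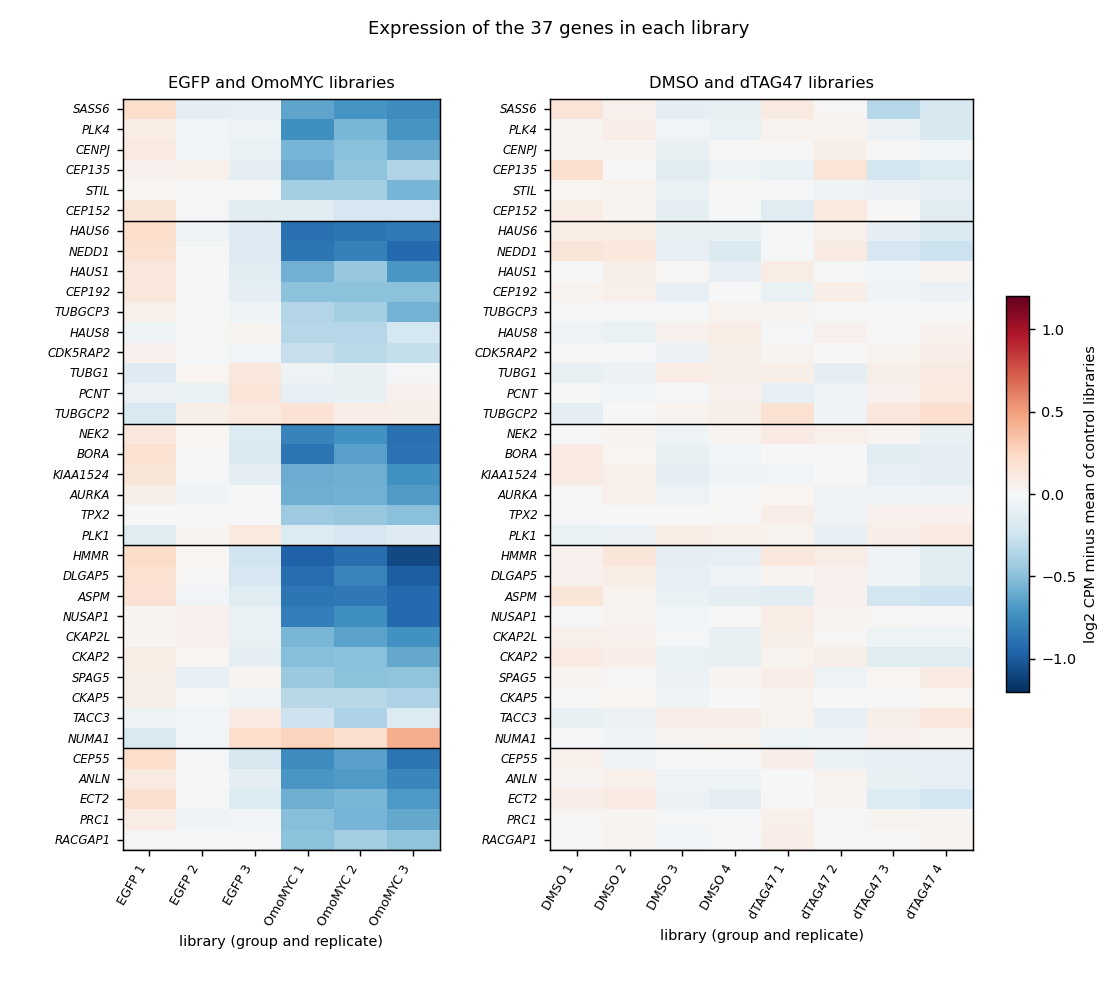
Level of each of the 37 genes in each library, as log2 CPM minus the mean of the EGFP libraries (left) or of the DMSO libraries (right). Rows follow the roles, separated by lines, and blue marks a lower level. The 3 OmoMYC libraries are lower in most rows, and replicates 1 and 2 differ from 3 and 4 in many rows of the parental experiment.

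Of the 6 centriole duplication genes 5 fell, and their median log2 fold change was -0.52. PLK4, the kinase that starts centriole assembly, stood at 74.8, 68.6 and 67.6 CPM with EGFP and at 42.2, 48.0 and 43.0 CPM with OmoMYC (log2 fold change -0.66 ± 0.08 SE, adjusted p = 9.38e-05). SASS6, which forms the central cartwheel of the new centriole, was at 19.0, 15.2 and 15.3 CPM with EGFP and at 10.6, 10.0 and 9.70 CPM with OmoMYC (-0.71 ± 0.11, adjusted p = 0.000445). Both genes thus lay lower in every OmoMYC library. STIL, the partner through which PLK4 recruits SASS6, changed by -0.46, and CENPJ, which sets centriole length, by -0.56. CEP135, a centriole wall protein and the least abundant of the 37 genes per length, changed by -0.48. CEP152, the scaffold that brings PLK4 to the mother centriole, was the exception. It stood at 66.0, 59.2 and 54.4 CPM with EGFP and at 54.2, 51.9 and 51.8 CPM with OmoMYC, and its change of -0.19 ± 0.08 missed the threshold (adjusted p = 0.0855). Without EGFP replicate 3 the change of CEP152 was -0.28 and passed (adjusted p = 0.00784).

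Genes of the pericentriolar material and of microtubule nucleation were divided in the scaled counts, with 7 of 10 called lower and a median of -0.37. The members that fell most were HAUS6, a subunit of the branching complex augmin, and NEDD1, the adaptor that attaches γ-tubulin ring complexes to the centrosome and to augmin. HAUS6 stood at 192, 159 and 149 CPM with EGFP and at 89.0, 90.6 and 91.9 CPM with OmoMYC (-0.88 ± 0.09, adjusted p = 3.78e-05). NEDD1 stood at 63.9, 55.4 and 50.8 CPM with EGFP and at 30.9, 32.1 and 29.6 CPM with OmoMYC (-0.88 ± 0.09, adjusted p = 4.31e-05). For both, the highest OmoMYC library lay far below the lowest EGFP library. The other augmin subunits on the list fell less, HAUS1 by 0.58 and HAUS8 by 0.30 on the log2 scale, and the call for HAUS8 was lost without OmoMYC replicate 1 (adjusted p = 0.0557). CEP192, which recruits PLK1 and Aurora A to the growing pericentriolar material, changed by -0.50, and CDK5RAP2, which activates γ-tubulin complexes, by -0.30. After the gene feature correction described with the GC content, 10 of the 10 genes were called lower, with a median of -0.50. HAUS6 was then at -0.64, CDK5RAP2 at -0.59, NEDD1 at -0.56, HAUS8 at -0.54 and HAUS1 at -0.27.

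The core of the γ-tubulin complex did not move as 1 block in the scaled counts, although the gene feature correction described with the GC content brought all of these genes down. TUBGCP3 fell by 0.44 on the log2 scale (adjusted p = 0.00113), while its partner TUBGCP2 stood at 52.8, 63.0 and 65.2 CPM with EGFP and at 67.6, 63.6 and 63.1 CPM with OmoMYC (0.10 ± 0.09, adjusted p = 0.353). TUBG1, γ-tubulin itself, was at 239, 269 and 290 CPM with EGFP and at 253, 249 and 261 CPM with OmoMYC (-0.06 ± 0.08, adjusted p = 0.509). PCNT, the large scaffold pericentrin, was at 179, 178 and 209 CPM with EGFP and at 175, 177 and 195 CPM with OmoMYC (-0.05 ± 0.08, adjusted p = 0.642). In these 3 genes the groups overlapped, and the 95% intervals reached from -0.23 to 0.13 for PCNT, from -0.23 to 0.11 for TUBG1 and from -0.09 to 0.30 for TUBGCP2. Without EGFP replicate 1, TUBG1 was called (-0.15, adjusted p = 0.0277). TUBG1 shares most of its sequence with TUBG2, so how reads were split between them is uncertain, and exons of TUBGCP2 overlap those of ZNF511 on the opposite strand over 805 bases while the strand setting of the counting is not given in the sources used here.

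Of the spindle pole kinases and their regulators, 5 of 6 fell, with a median of -0.63. AURKA, the gene of Aurora A, was at 140, 129 and 131 CPM with EGFP and at 89.0, 89.6 and 83.2 CPM with OmoMYC (-0.61 ± 0.07, adjusted p = 5.86e-05). Its activators moved the same way, with BORA at -0.80 and TPX2, which also targets the kinase to spindle microtubules, at -0.46. Exons of BORA overlap those of DIS3 on the opposite strand over 1180 bases. NEK2, the kinase that dissolves the link between centrosomes, went from 75.6, 69.98 and 61.5 CPM to 39.5, 41.5 and 36.97 CPM (-0.81 ± 0.09, adjusted p = 5.56e-05). KIAA1524, now named CIP2A, an inhibitor of protein phosphatase PP2A, changed by -0.64. PLK1 differed from the rest of its group. It stood at 146, 164 and 174 CPM with EGFP and at 144, 140 and 144 CPM with OmoMYC, so that the groups only just failed to overlap, and its change of -0.18 ± 0.08 missed the threshold (adjusted p = 0.0728). PLK1 passed with DESeq2 (adjusted p = 0.0464) and without EGFP replicate 1 (adjusted p = 0.000775).

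The spindle pole and spindle microtubule proteins held the strongest falls, with 9 of 10 called lower, 1 called higher and a median of -0.59. HMMR, a microtubule-binding protein that keeps spindle poles focused, stood at 114, 98.7 and 82.3 CPM with EGFP and at 49.6, 51.9 and 45.9 CPM with OmoMYC (-0.999 ± 0.11, adjusted p = 5.24e-05). ASPM, which gathers microtubule minus ends at the pole, was at 356, 308 and 286 CPM with EGFP and at 172, 174 and 166 CPM with OmoMYC (-0.89 ± 0.08, adjusted p = 1.64e-05). The OmoMYC libraries agreed closely for both genes, while the EGFP libraries were spread over a wider range. DLGAP5, a Ran-regulated stabilizer of kinetochore fibres, changed by -0.90. NUSAP1, which binds and bundles spindle microtubules near chromosomes, stood at 249.3, 252.5 and 230.1 CPM with EGFP and at 137, 147 and 128 CPM with OmoMYC (-0.83 ± 0.07, adjusted p = 1.13e-05). The microtubule-associated proteins CKAP2L and CKAP2 changed by -0.64 and -0.54, and SPAG5, a spindle and kinetochore protein, by -0.48. CKAP5, a microtubule polymerase, and TACC3, which links it to clathrin on kinetochore fibres, moved less in the scaled counts (-0.34 and -0.26). The call for TACC3 was lost without OmoMYC replicate 1 (adjusted p = 0.052) or replicate 2 (adjusted p = 0.0511). After the gene feature correction described with the GC content, however, TACC3 was at -0.66 (adjusted p = 2.87e-10) and CKAP5 at -0.33.

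NUMA1 was the 1 gene of the 37 that rose. Its protein anchors microtubule minus ends and dynein at the poles and the cell cortex, and outside mitosis it is a nuclear protein. It stood at 165, 184 and 217 CPM with EGFP and at 226, 214 and 254 CPM with OmoMYC (0.29 ± 0.10, adjusted p = 0.0329). The groups overlapped, since the lowest OmoMYC library lay below EGFP replicate 3. The call was lost when EGFP replicate 2 or OmoMYC replicate 1 or 3 was left out, and the direction turned after the correction for gene features described with the GC content. NUMA1 spans 71713910 to 71791739 on chromosome 11 (minus strand, GRCh37, the sequence of hg19), where its exons overlap those of IL18BP on the opposite strand over 1031 bases.

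All 5 genes of the central spindle and of cytokinesis fell, with a median of -0.61. CEP55, which recruits the abscission machinery to the midbody, was at 45.2, 38.3 and 34.2 CPM with EGFP and at 23.1, 24.7 and 21.3 CPM with OmoMYC (-0.77 ± 0.11, adjusted p = 0.000261). ANLN, the actin-binding scaffold anillin of the contractile ring, changed by -0.72 and ECT2, the exchange factor that activates RhoA at the cell equator, by -0.61. PRC1, which crosslinks the antiparallel microtubules of the central spindle, changed by -0.56, and RACGAP1, the centralspindlin subunit that binds ECT2, by -0.46. In each of these 5 genes the OmoMYC libraries all lay below the EGFP libraries, and the call held whichever library was left out.

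Promoter sequences were examined because most of the genes moved together. RefSeq (GRCh38.p14) gave a window from 250 bases before to 50 after the start for 33 of the 37 genes, and none was used for CENPJ, AURKA, TPX2 and RACGAP1. Of 4 motifs searched on both strands, TTTGAA, the core of the cell cycle genes homology region at which the DREAM and MuvB complexes act, was in 19 of the 33 windows (57.6%), beside 15.4% of all 27305 RefSeq promoters and 9.54% of the promoters of tested genes. CCAAT, the NF-Y motif that often accompanies it, was in 18 of 33 (54.5%, beside 35.7% of all promoters and 36.0% of those of tested genes). The E2F motif TTCCCGC was in 7 (21.2%, beside 6.56% and 10.1%). The MYC E-box CACGTG was in 2, PLK1 and ANLN (6.06%, beside 7.43% and 10.0%). The median log2 fold change with OmoMYC was -0.61 for the 19 genes with TTTGAA and -0.50 for the other 14. A match is a description of letters and not evidence of binding.

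The 250 bases before the start are shown for the 4 genes that fell most and have a window with TTTGAA, and for the 2 genes with the highest log2 fold changes. The first 4 were chosen for holding the motif, so no comparison of motif content is drawn between them and the other 2. HAUS6 and NEDD1, each at -0.88, fell more than NUSAP1 and their windows hold neither TTTGAA nor CCAAT. Capitals mark TTTGAA or its reverse complement TTCAAA, and CCAAT or its reverse complement ATTGG. Sequences are written 5′ to 3′ on the strand of the gene.

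HMMR (chr5:163460382-163460631, plus strand): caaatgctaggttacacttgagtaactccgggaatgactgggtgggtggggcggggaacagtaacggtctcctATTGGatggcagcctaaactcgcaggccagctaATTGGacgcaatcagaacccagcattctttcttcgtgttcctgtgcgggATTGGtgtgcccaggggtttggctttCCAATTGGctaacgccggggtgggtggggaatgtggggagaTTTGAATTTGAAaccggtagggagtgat

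DLGAP5 (chr14:55191586-55191835, minus strand): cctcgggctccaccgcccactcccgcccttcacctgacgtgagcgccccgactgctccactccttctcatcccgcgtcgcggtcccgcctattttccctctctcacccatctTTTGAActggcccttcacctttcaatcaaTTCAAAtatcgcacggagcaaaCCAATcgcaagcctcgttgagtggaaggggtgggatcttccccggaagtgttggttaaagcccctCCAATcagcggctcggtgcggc

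ASPM (chr1:197146670-197146919, minus strand): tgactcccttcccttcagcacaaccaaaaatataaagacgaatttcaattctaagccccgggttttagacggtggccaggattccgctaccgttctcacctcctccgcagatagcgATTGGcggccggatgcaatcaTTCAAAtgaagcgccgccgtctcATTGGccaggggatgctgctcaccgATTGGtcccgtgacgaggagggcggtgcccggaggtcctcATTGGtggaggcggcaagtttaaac

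NUSAP1 (chr15:41332631-41332880, plus strand): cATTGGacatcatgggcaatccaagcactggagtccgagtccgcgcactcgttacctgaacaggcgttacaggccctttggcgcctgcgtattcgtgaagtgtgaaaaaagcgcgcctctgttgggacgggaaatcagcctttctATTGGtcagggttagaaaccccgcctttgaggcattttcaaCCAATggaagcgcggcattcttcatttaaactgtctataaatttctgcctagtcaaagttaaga

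TUBGCP2 (chr10:133312338-133312587, minus strand): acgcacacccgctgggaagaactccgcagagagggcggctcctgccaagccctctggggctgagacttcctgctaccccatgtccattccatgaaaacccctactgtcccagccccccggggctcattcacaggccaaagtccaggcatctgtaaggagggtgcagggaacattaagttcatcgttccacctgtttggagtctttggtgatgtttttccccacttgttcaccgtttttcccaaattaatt

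NUMA1 (chr11:72080543-72080792, minus strand): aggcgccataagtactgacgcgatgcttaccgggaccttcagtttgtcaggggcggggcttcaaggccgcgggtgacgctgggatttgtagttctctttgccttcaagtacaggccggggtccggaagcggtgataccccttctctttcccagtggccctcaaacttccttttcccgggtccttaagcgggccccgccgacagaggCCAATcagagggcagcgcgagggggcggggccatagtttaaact

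HMMR holds TTTGAA in tandem at 28 and 22 bases before the start, downstream of 5 CCAAT matches, of which the last pair overlaps. ASPM has 4 CCAAT matches in the stretch and 1 TTTGAA, and DLGAP5 has 2 of each with a further TTTGAA 4 bases after the start. In NUSAP1 the TTTGAA lies 14 bases after the start, beyond the stretch shown. TUBGCP2 has neither motif, and NUMA1 has a single CCAAT.

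The size of the change followed the base composition of the transcripts. Across the 37 genes, the log2 fold change with OmoMYC rose with the GC content of the longest transcript (Pearson r = 0.78, Spearman rho = 0.72, n = 37 genes that share the same 6 libraries), and across all 13499 tested genes with known features r was 0.33. The 18 genes of lower GC content (34.8 to 41.5%) had a median of -0.69, and the 19 of higher GC content (41.8 to 59.4%) had a median of -0.44. All tested genes with known features were split once at 41.5%, with a median of -0.27 at or below it and 0.11 above it. These 2 parts also hold genes below 34.8% and above 59.4%. The libraries of 1 group also differed along this axis. The summed CPM of the lower-GC genes, as a ratio to that of the higher-GC genes, was 0.563, 0.507 and 0.456 in the EGFP libraries and 0.390, 0.405 and 0.374 in the OmoMYC libraries. EGFP replicate 1 was thus farthest from the OmoMYC libraries and replicate 3 nearest, and the groups did not overlap.

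When a smooth trend on GC content, exonic length and gene span was removed from each library, 36 of the 37 genes fell and 0 rose, against 38.8% of all tested genes that fell. The median of the 37 genes was then -0.47, beside -0.08 over all tested genes, and r with GC content was -0.05. NUMA1 turned to -0.18 (adjusted p = 0.00036) and TUBGCP2 to -0.24 (adjusted p = 0.000489), and PCNT (-0.47), TUBG1 (-0.26) and PLK1 (-0.53) were called lower. CEP152, at -0.04, was then the 1 gene not called (adjusted p = 0.442). The correction moves the split over all tested genes from 3545 lower and 3766 higher to 5236 lower and 3022 higher, and it removes any trend with GC content, whatever its source. The part of base composition in these differences was not tested beyond this.

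**Figure D3:**
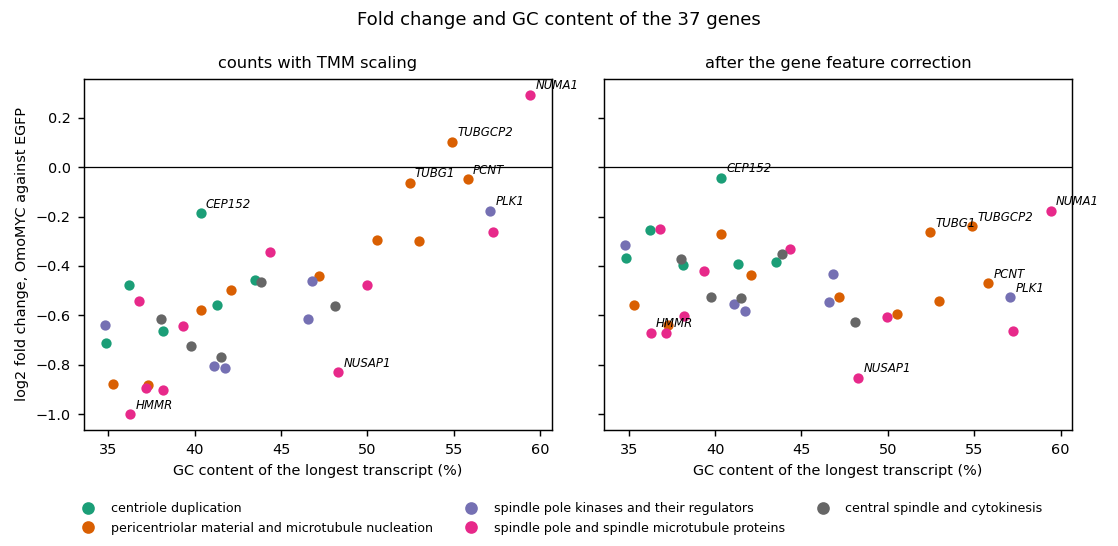
Log2 fold change of the 37 genes for OmoMYC against EGFP (vertical axis) by GC content of the longest transcript in percent (horizontal axis), from counts scaled by TMM (left) and after removal of trends with gene features (right). Points are genes, coloured by role. The upward slope on the left (r = 0.78) is absent on the right (r = -0.05), where all 37 points lie below 0.

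Further genes of the same structures were counted in the same fit, in which 25.7% of all tested genes fell and 27.3% rose. After the gene feature correction 38.8% of all tested genes fell. Of 46 other centriole and centrosome genes tested, 23 fell and 6 rose, with a median of -0.25. POC1B, a centriole wall protein, fell from 23.8 ± 3.9 to 11.6 ± 0.5 CPM (mean ± SD, n = 3 each), which is -1.04 on the log2 scale. CEP120, a centriole elongation factor, changed by -0.71, and CNTLN, a linker protein, rose by 0.64. Of 11 other γ-tubulin complex and augmin subunits, 5 fell and 2 rose. The ring complex subunit MZT1 fell by 1.26 on the log2 scale, from 57.7 ± 18.6 to 24.2 ± 2.4 CPM, and the augmin subunits HAUS4 and HAUS3 by 0.53 and 0.44, while TUBG2 and TUBGCP6 each rose by 0.37. After the correction for gene features, TUBG2 stood at 0.05 (adjusted p = 0.485) and TUBGCP6 at -0.10 (adjusted p = 0.0733), so neither rise was kept. Of 37 other spindle assembly and orientation genes, 16 fell and 4 rose, with GPSM2, which binds NuMA at the cortex, at -0.76 and the microtubule end-binding gene MAPRE3 at 1.84. Of 30 other cytokinesis genes, 11 fell and 5 rose (median -0.01), and 18 fell and 5 rose after the correction. Before the correction DIAPH3, a formin, was at -0.71 and the ESCRT subunits CHMP6 and CHMP1A were at 0.54 and 0.45. After it DIAPH3 was at -0.81, while CHMP6 (0.16, adjusted p = 0.0544) and CHMP1A (-0.03, adjusted p = 0.493) were no longer called.

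Genes of the cell cycle phases moved with the spindle pole genes. Of 34 other G2 and M phase genes, 27 fell and 0 rose (25.7% and 27.3% over all tested genes), with a median of -0.64. Their summed level went from 7758 to 8346 CPM over the EGFP libraries to 5646 to 5660 CPM over the OmoMYC libraries. Of 24 S phase genes, 18 fell and 0 rose, with a median of -0.31. After the gene feature correction the lists lay closer together. Of 33 other G2 and M phase genes with known features 33 then fell (median -0.50), and 22 of 24 S phase genes (median -0.46), beside 38.8% of all tested genes. The part of a change in cell cycle phase in the fall of the spindle pole genes was not tested.

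The genes differed widely in level per length. In reads per kilobase of exon on the CPM scale (RPKM), the EGFP libraries gave TPX2 142 ± 0.8 (SD, n = 3), CKAP5 73.5 ± 3.1, NUSAP1 67.6 ± 3.4 and TUBG1 61.6 ± 6.0 at the top, and HAUS8 4.61 ± 0.14, TUBGCP2 4.26 ± 0.47, SASS6 4.16 ± 0.55 and CEP135 1.98 ± 0.13 at the bottom. The lead of TPX2 over CKAP5 and the last place of CEP135 were clear of the replicate range, whereas NUSAP1 and TUBG1 overlapped, as did most neighbours in the middle of the order. With OmoMYC, PLK1 moved from place 11 to place 6 of the 37 RPKM levels and NUMA1 from place 24 to place 14, while HMMR moved from place 15 to place 20. These places come from levels without the gene feature correction, after which PLK1 (-0.53) and NUMA1 (-0.18) were both called lower. The order in parental cells with DMSO was close to that with EGFP (Spearman rho = 0.985 over the 37 genes, description only), with TPX2 at 105, CKAP5 at 51.0, NUSAP1 at 46.3 and CEP135 at 1.88 RPKM. Each of the 37 genes had a higher RPKM with EGFP than with DMSO, by a median ratio of 1.21 (1.02 to 1.60), but these tables were scaled separately and come from different cultures, lines and sera, so this ratio was not tested.

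**Figure D4:**
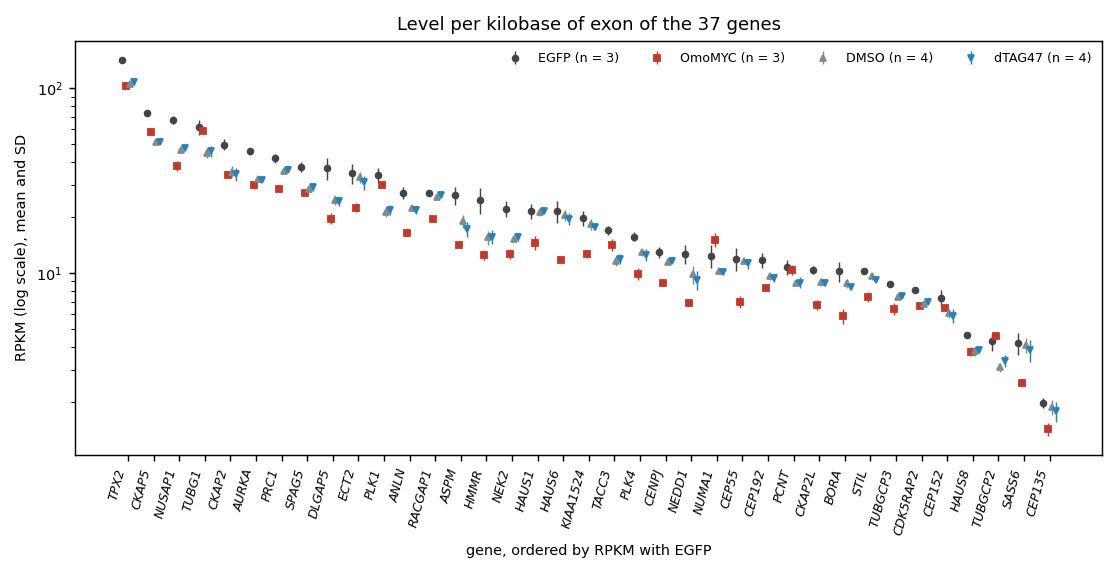
Level of each of the 37 genes per kilobase of exon (RPKM, log axis) in the 4 groups, as mean and SD over libraries, ordered by the level with EGFP. TPX2 is highest (142 RPKM) and CEP135 lowest (1.98 RPKM), and the OmoMYC squares lie below the EGFP circles for all genes but TUBGCP2 and NUMA1.

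To ask whether the compound alone affected the same genes, dTAG47 was compared with DMSO in parental cells. None of the 37 genes passed the threshold (0 lower and 0 higher, edgeR), beside 0.0415% of all tested genes lower and 0.117% higher, and 0 had an unadjusted p under 0.05. DESeq2 called 0 of the 37 as well. The estimates were 19 below 0 and 18 above, with a median of 0.00 and a median SE of 0.05. In all 37 genes the groups overlapped, where 1.47% of all tested genes lay wholly below and 1.87% wholly above. The summed level of the 37 genes was 4343, 4354, 4171 and 4242 CPM with DMSO and 4344, 4264, 4206 and 4206 CPM with dTAG47, so the groups covered the same range. The 95% intervals of all 37 genes lay between -0.29 (SASS6) and 0.25 (TUBGCP2) on the log2 scale, so changes of the size seen for HMMR or ASPM with OmoMYC fall outside them. The difference between the experiments was not tested.

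The genes at the ends of the dTAG47 range were ASPM and TUBGCP2. ASPM stood at 252, 235, 216 and 211 CPM with DMSO and at 207, 236, 196 and 192 CPM with dTAG47 (-0.14 ± 0.07, adjusted p = 0.673). It was lower in 3 of 4 pairs of the same replicate number, and it passed when the number was kept as a block (-0.14, adjusted p = 0.03), in a fit that called 2.50% of all tested genes lower. TUBGCP2 stood at 40.1, 43.8, 44.8 and 45.9 CPM with DMSO and at 49.6, 42.1, 47.9 and 50.1 CPM with dTAG47 (0.12 ± 0.06, adjusted p = 0.673). Replicates 1 and 2 differed from 3 and 4 in several genes, whichever the treatment. HAUS6, for example, was at 169 and 168 CPM in DMSO replicates 1 and 2 and at 149 CPM in both others, and with dTAG47 at 155 and 165 against 146 and 140 CPM. In other genes dTAG47 replicate 1 lay nearer to 3 and 4, as in PLK1 (105, 95.4, 108 and 110 CPM with dTAG47). With a factor for replicates 1 and 2 against 3 and 4, which called 2.90% of all tested genes lower, ASPM (adjusted p = 0.0189) and ECT2 passed. ECT2 stood at 191, 194, 172 and 168 CPM with DMSO and at 181, 185, 161 and 154 CPM with dTAG47, lower in each of the 4 pairs. Its log2 fold change was -0.09 (adjusted p = 0.0414 with the factor and 0.705 without it). After the gene feature correction, fitted without block or factor, ASPM was at -0.05 (adjusted p = 0.46) and ECT2 at -0.01 (adjusted p = 0.909).

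In the parental libraries, the ratio of lower-GC to higher-GC genes ranged from 0.511 to 0.586 with DMSO and from 0.477 to 0.580 with dTAG47, and it was higher in DMSO replicates 1 and 2 and dTAG47 replicate 2 than in the others. The log2 fold change with dTAG47 also rose with GC content (r = 0.71, n = 37 genes that share 8 libraries), although over a much narrower range than with OmoMYC, and after the correction r was -0.24 with 0 genes called.

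Among the roles, the medians with dTAG47 were -0.05 for centriole duplication, 0.01 for the pericentriolar material, 0.00 for the kinases, 0.00 for spindle proteins and -0.04 for cytokinesis. Of the lists of further centrosome, spindle, cytokinesis and cell cycle genes, 0 genes were called in either direction in the main fit. After the gene feature correction 1 S phase gene, MCM6, was called higher (0.13, adjusted p = 0.0254, edgeR). That fit called 77 of 14201 tested genes higher. PLK4 was at 54.9 to 61.1 CPM with DMSO and 50.6 to 59.8 CPM with dTAG47, AURKA at 90.8 to 99.1 and 92.0 to 96.6 CPM, and PLK1 at 96.4 to 109 and 95.4 to 110 CPM, so that each range with dTAG47 overlapped that with DMSO.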

How the data were processed

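RNA-seq was analysed from 14 libraries. Per the labels and the study's methods, the authors used Cutadapt for trimming, STAR for alignment to hg19 and FeatureCounts for counting per gene. The deposited values are raw counts per gene. Annotation, strand setting and handling of multi-mapped reads are not given in the sources used here. The libraries are biological replicates per the methods, which do not say how cultures were separated.

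Each experiment was fitted by itself in R 4.3.3 with edgeR 4.0.16 (filterByExpr, TMM, robust quasi-likelihood test, Benjamini-Hochberg over all tested genes, FDR 0.05), on 28060817 to 53451641 counts per library. Expression is given as CPM on TMM-scaled library sizes, and RPKM divides CPM by the union of exons. DESeq2 1.42.0 (named in the study's methods), limma 3.58.1 voom, other scalings and filters, a replicate block, left-out libraries and a correction for GC content, exonic length and span (available for 13499 of 13803 and 14201 of 14470 tested genes) were alternatives. The code was tested on simulated data. Gene models come from GENCODE v44 lifted to GRCh37, the sequence of hg19.

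Same-numbered DMSO and dTAG47 libraries deviated together from their group means (correlations 0.251, 0.635, 0.556 and 0.691), a pairing that comes from the data and not from the labels. Differently numbered libraries did so as well within replicates 1 and 2 (0.387 and 0.706) and within 3 and 4 (0.557 and 0.63), so a division of 1 and 2 from 3 and 4 and a pairing by number cannot be told apart. The main fit has no block, and fits with a block or with a factor for the division were alternatives. All 37 genes are named, and of each further list up to 3 called genes per direction with the largest change, non-overlapping groups and at least 1 CPM could be. The genes and lists were chosen with earlier results of these data known. The result for 1 gene is not reported here.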

Additional observations from a re-analysis of the deposited data

Results flagged for a closer look

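In the parental experiment each of the 37 genes was checked in both groups of 4 libraries for a library far from the other 3, by the gap to its nearest neighbour over the range of the group. Of 74 such groups, 4 had one, and about 1 in 20 is reached by chance. TUBG1, γ-tubulin, was at 177 CPM in dTAG47 replicate 2 and at 201 to 206 CPM in the other 3 dTAG47 libraries. AURKA was at 96.6 CPM in dTAG47 replicate 1 and at 92.0 to 92.3 CPM in the others. CEP55 was at 40.5 CPM in dTAG47 replicate 1 and at 35.7 to 36.2 CPM in the others. TUBGCP3 was at 55.7 CPM in DMSO replicate 4 and at 53.5 to 53.6 CPM in the others, a difference of a few percent. The cause was not tested.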

How the results depend on the processing

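The count of genes that fell with OmoMYC stayed between 31 and 36 of 37 over other tools, scalings, filters and the gene feature correction, and between 29 and 33 when 1 library was left out. The count that rose was 1 and became 0 after the gene feature correction, and ranged from 0 to 1 over left-out libraries. The median log2 fold change was -0.47 after the gene feature correction and ranged from -0.63 to -0.52 over left-out libraries. That correction reversed NUMA1 (-0.18) and TUBGCP2 (-0.24), and in the further lists it moved the cytokinesis genes that fell from 11 to 18 and the γ-tubulin complex and augmin subunits that rose from 2 to 0. Without EGFP replicate 3 the other centriole and centrosome genes that rose went from 6 to 10. The cause was not tested. Deviations of EGFP and OmoMYC libraries of the same number had mixed correlations (0.224, -0.202 and 0.677), and EGFP replicate 1 with OmoMYC replicate 2 gave 0.635. The replicate block changed the calls over all tested genes from 3545 lower and 3766 higher to 3867 and 4233. Of the 37 genes, PLK1 was also called with that block (adjusted p = 0.0435).

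With dTAG47, the count of genes that fell was 0, and it was 1 with a replicate block, 2 with a factor for replicates 1 and 2 against 3 and 4, and 2 with replicates 3 and 4 only. Over all tested genes, calls went from 6 lower and 17 higher to 362 and 306 with the block, and to 420 and 374 with the factor. The fit of replicates 3 and 4 only called 470 lower and 426 higher of 14528 tested genes. Leaving out any 1 library called 0 of the 37 genes, and the block changed no other call among them. With 4 libraries a group the median SE was 0.05 on the log2 scale, and changes larger than this could still miss the threshold. ASPM, at -0.14 ± 0.07, had an adjusted p of 0.673 in the main edgeR fit.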

Other observations

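Of 24 S phase genes 18 fell with OmoMYC, and MCM2, MCM5, FEN1, CDT1, POLA1 and E2F1 did not pass. After the gene feature correction (edgeR) these genes were all called lower, from -0.18 for POLA1 to -0.62 for CDT1. TIPIN (-0.03, adjusted p = 0.726) and CCNE2 (-0.07, adjusted p = 0.409) were then not called. POLE2, a subunit of DNA polymerase epsilon, went from 26.9 ± 3.5 to 15.8 ± 0.6 CPM between EGFP and OmoMYC (mean ± SD, n = 3 each), or -0.77 on the log2 scale. PCNA, the replication clamp, went from 134 ± 13 to 82.3 ± 4.4 CPM (-0.71), and RFC4, a subunit of the clamp loader, from 104 ± 11 to 64.6 ± 2.1 CPM (-0.69). Among the other G2 and M phase genes, the kinase subunit CKS2 changed by -1.24 and CDK1, the kinase that drives mitotic entry, by -1.03, from 118 ± 26 to 57.8 ± 5.2 CPM. MYCN itself was at 2713 ± 266 CPM with EGFP and at 2240 ± 66 CPM with OmoMYC (-0.28, adjusted p = 0.0103, edgeR).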
